A study of Mus musculus with 6 samples.

Results

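The EGF-like ligands amphiregulin (Areg), epiregulin (Ereg), betacellulin (Btc), epigen (Epgn), heparin-binding EGF-like growth factor (Hbegf), transforming growth factor alpha (Tgfa) and neuregulin 1 (Nrg1) were followed in mouse ovarian granulosa cells with and without the kinases ERK1 and ERK2. Members were all probe sets that the platform annotation assigns to these 7 genes, including any shared with another gene. The rule found 10 probe sets of 6 genes among 45037 probe sets on the array: 1 for Ereg, 2 for Btc, 1 for Epgn, 2 for Hbegf, 3 for Tgfa and 1 for Nrg1. Each of the 10 carries a single gene symbol, and 0 probe sets name Areg in that annotation, so Areg RNA was not analysed here.

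The cells came from immature mice 23 days old. All mice were given 5 IU eCG (equine chorionic gonadotropin), a hormone under which follicles grow, for 48 h. Some were then sampled without further treatment, here called 0 h, and the others 2.5 h or 4 h after an injection of 5 IU hCG (human chorionic gonadotropin), which acts like the ovulatory surge of luteinizing hormone (LH). The 2 genotypes were wild type and a double mutant, labelled ERK1 knockout with ERK2 fl/fl;Cyp19CRE, in which the Cre recombinase that removes ERK2 is driven by the aromatase promoter. Cre under that promoter acts in granulosa cells, and cell types that do not express it keep their ERK2. Each genotype was measured on 1 array at each of the 3 times, 6 arrays in all, and the labels name no replicates and do not say how many animals gave each sample.

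In the preovulatory follicle, LH acts on receptors of the mural granulosa cells and raises cyclic AMP. These cells then make EGF-like ligands as membrane-bound precursors, which proteases release. The freed ligands activate EGF receptors on cumulus and granulosa cells, and ERK1 and ERK2 carry that signal to the genes of cumulus expansion, oocyte maturation and ovulation. Areg, Ereg, Btc, Epgn, Hbegf and Tgfa encode ligands of the EGF receptor itself, and Ereg, Btc and Hbegf also act through ERBB4. Nrg1 encodes a ligand of ERBB3 and ERBB4.

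Epgn, Ereg, Areg and Btc lie in that order on chromosome 5 in the RefSeq gene table of assembly GRCm38.p6, with 3 other genes between Epgn and Btc. Hbegf, Tgfa and Nrg1 lie elsewhere. RefSeq promoter windows were searched for 4 of the 7 genes, namely Areg, Btc, Epgn and Tgfa. Those of Ereg, Hbegf and Nrg1 were not analysed here, so no promoter of the ligand that was lower after hCG is included. The windows of Btc and Epgn, whose RNA levels moved together on these arrays, and of Tgfa, whose level stayed within 2-fold, are shown 5′ to 3′ on the gene's own strand. Each holds the 250 bases before the annotated transcription start. Capitals mark matches to any of the 8 motifs searched. Btc is on the minus strand at chr5:91402995-91403244, Epgn on the plus strand at chr5:91027267-91027516 and Tgfa on the plus strand at chr6:86194972-86195221, all in GRCm38.p6.
Btc: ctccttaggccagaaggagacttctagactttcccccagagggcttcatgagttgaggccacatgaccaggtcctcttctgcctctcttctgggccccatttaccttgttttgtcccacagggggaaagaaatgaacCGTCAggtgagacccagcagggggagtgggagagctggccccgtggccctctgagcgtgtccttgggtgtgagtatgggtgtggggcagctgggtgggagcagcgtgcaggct
Epgn: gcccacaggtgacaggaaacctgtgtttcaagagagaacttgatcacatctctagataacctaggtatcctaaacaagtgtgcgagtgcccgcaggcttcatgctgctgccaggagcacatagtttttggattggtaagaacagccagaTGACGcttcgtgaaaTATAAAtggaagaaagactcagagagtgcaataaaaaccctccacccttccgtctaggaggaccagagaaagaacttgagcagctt
Tgfa: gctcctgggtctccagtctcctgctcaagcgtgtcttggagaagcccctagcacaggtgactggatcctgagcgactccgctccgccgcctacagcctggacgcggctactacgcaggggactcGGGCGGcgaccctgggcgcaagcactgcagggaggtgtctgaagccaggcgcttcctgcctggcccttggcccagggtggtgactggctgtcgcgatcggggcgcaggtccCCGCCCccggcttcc

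The motifs were searched on both strands in all 32851 promoter windows of the same length. They were the cyclic AMP response element TGACGTCA (1.55% of windows with a match), its core TGACG, which lies inside it (17.8%), SP1 GGGCGG (32.7%), AP-1 TGANTCA (6.75%), C/EBP TTNNGCAA (9.56%), RUNX TGTGGT (14.0%), EGR GCGNGGGCG (4.70%) and the TATA box TATAAA (12.4%). The Btc window held 1 match, a TGACG core read on the opposite strand 113 to 109 bases before the start. The Epgn window held a TGACG core 101 to 97 bases before the start and a TATA box match 86 to 81 bases before it. The Tgfa window held 2 SP1 matches, and neither TGACG nor TATAAA was found in it. The Areg window, not printed because its RNA was not analysed here, was the 1 of 4 with the full cyclic AMP response element, 61 to 54 bases before the start. It also held a further TGACG core at 115 to 111, an SP1 match at 52 to 47 and a TATA box match at 31 to 26 bases before the start. These are matches of letters in 4 windows, with no measurement of binding.

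Intensities are the deposited values on a linear scale, and 3 values in a row are those at 0 h, 2.5 h and 4 h. A value under 64 (log2 of 6) was treated as hard to tell from background, since the median probe set on each array stood at 54 or 55. A pair of arrays was said to differ when the brighter value was at 64 or more and at least 2-fold above the other (1 or more on the log2 scale). With 1 array per group this is a rule of size, with no replicate error and no p-value. Of the 10 ligand probe sets, 7 reached 64 on some array. The 3 that did not were 2 of Tgfa and the 1 of Nrg1.

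Ereg, an EGF receptor ligand made by granulosa cells after LH, had the largest response among the ligands in each genotype. Its intensity in wild type was 35 at 0 h, 15945 at 2.5 h and 15438 at 4 h. In knockout it was 29 at 0 h, 7644 at 2.5 h and 7360 at 4 h. Both 0 h arrays were under 64 and all 4 arrays after hCG were far above it, with the values at 2.5 h and 4 h nearly equal within each genotype. The measured ratio to 0 h was 456-fold at 2.5 h in wild type and 264-fold in knockout. With the 0 h value raised to 64 these were at least 249-fold and at least 119-fold. After hCG the knockout level was 47.9% of wild type at 2.5 h and 47.7% at 4 h, just past the 2-fold line at both times (log2 differences of -1.06 and -1.07).

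Btc, another EGF receptor ligand, responded strongly in wild type and much less in knockout. By probe set 1435541_at it went from 46 at 0 h to 5768 at 2.5 h and 13217 at 4 h in wild type. In knockout the same probe set read 49, 256 and 400. By the dimmer probe set 1421161_at the wild type values were 17, 817 and 1587, and the knockout values 15, 21 and 26, which are all under 64. By both probe sets the genotypes were alike at 0 h and far apart after hCG. The knockout level by 1435541_at was 22.5-fold lower at 2.5 h and 33.0-fold lower at 4 h (log2 -4.49 and -5.05). By 1421161_at the ratios were 38.9-fold and 61.0-fold, or at least 12.8-fold and at least 24.8-fold with the knockout value raised to 64. Unlike Ereg, Btc was higher at 4 h than at 2.5 h in wild type, by 2.29-fold and 1.94-fold in the respective probe sets. In knockout the measured ratio of 1435541_at to 0 h was 5.22-fold at 2.5 h and 8.16-fold at 4 h, or at least 4.00-fold and at least 6.25-fold with the 0 h value raised to 64.

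Epgn, which encodes a further EGF receptor ligand, had a pattern close to that of Btc. Its wild type intensities were 27, 1146 and 2697 at 0 h, 2.5 h and 4 h. Its knockout intensities were 26, 158 and 180. The genotypes were again alike at 0 h, and in each the arrays after hCG lay above 64. The measured ratio to 0 h in wild type was 42.4-fold at 2.5 h and 99.9-fold at 4 h, or at least 17.9-fold and at least 42.1-fold with the 0 h value raised to 64. In knockout it was 6.08-fold and 6.92-fold, or at least 2.47-fold and at least 2.81-fold. Epgn in knockout was 7.25-fold below wild type at 2.5 h (log2 -2.86) and 15.0-fold below at 4 h (log2 -3.91). Between 2.5 h and 4 h it was 2.35-fold higher in wild type and 1.14-fold higher in knockout.

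**Figure D1:**
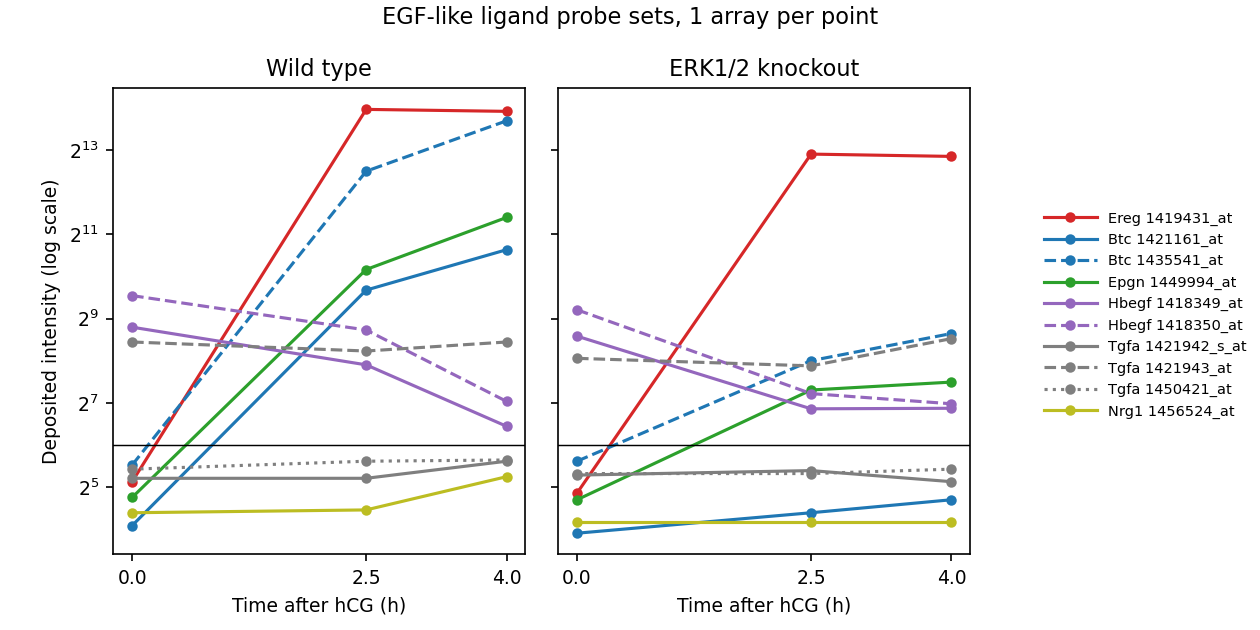
Deposited intensity (log scale) of the 10 ligand probe sets against hours after hCG in wild type (left) and ERK1/2 knockout (right), 1 array per point, with a horizontal line at 64. Ereg is high in both genotypes after hCG, Btc and Epgn are far higher in wild type, and Hbegf is lower after hCG in both.

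Hbegf, whose product activates the EGF receptor and ERBB4 and binds heparan sulfate, went the other way. By probe set 1418350_at the wild type intensities were 746, 424 and 131 at 0 h, 2.5 h and 4 h, and the knockout intensities 591, 149 and 126. By 1418349_at they were 444, 239 and 87 in wild type against 383, 116 and 117 in knockout. All 12 values were above 64, so the ratios need no bound. In wild type the level was 1.76-fold and 1.86-fold below 0 h at 2.5 h, short of the 2-fold line, and 5.69-fold and 5.10-fold below at 4 h. In knockout it was already 3.97-fold and 3.30-fold below 0 h at 2.5 h, and 4.69-fold and 3.27-fold at 4 h. The genotypes therefore differed past 2-fold at 2.5 h, where knockout was 2.85-fold and 2.06-fold lower, and not at 4 h, where the ratios were 1.04-fold lower and 1.34-fold higher. The value of 1418349_at at 2.5 h did not pass 2-fold when 32 was added to each intensity (log2 -0.87). The 2 Hbegf probe sets were read on the same arrays for the same gene and are not independent measurements.

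Tgfa, an EGF receptor ligand often made by theca cells, stayed within 2-fold in each of the 9 comparisons between a pair of arrays. Its brightest probe set, 1421943_at, read 348, 300 and 348 in wild type against 266, 235 and 368 in knockout. The largest of its differences was 1.57-fold, between 2.5 h and 4 h in knockout. The other Tgfa probe sets read 35 to 50 over the 6 arrays. Nrg1 read 21, 22 and 38 in wild type against 18, 18 and 18 in knockout, under 64 throughout, so no change could be read from its probe set. Its transcripts differ in their 3′ ends, and other Nrg1 transcripts were not analysed here.

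The number of ligand probe sets past the rule of size was set beside the share of all probe sets past it. At 2.5 h in wild type, 4 of 10 differed from 0 h, each of them higher, against 2.43% of all probe sets. At 4 h in wild type 6 of 10 did, 4 higher and 2 lower, against 6.77%. Between 2.5 h and 4 h in wild type 4 of 10 did, 2 each way, against 1.59%. In knockout 5 of 10 differed from 0 h, 3 higher and 2 lower, at 2.5 h (4.05% of all) and at 4 h (4.53%). Between 2.5 h and 4 h in knockout 0 of 10 differed, against 0.486%. These counts include 2 probe sets each for Btc and Hbegf, which measure the same RNA. The median log2 difference from 0 h over the 10 was 0.13 (2.5 h) and 0.63 (4 h) in wild type and 0.05 (2.5 h) and 0.29 (4 h) in knockout, and 0.00 over all probe sets in each of these 4 comparisons.

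Between genotypes, 0 of 10 ligand probe sets differed at 0 h, where 1.63% of all did. Knockout was lower by the rule for 6 of 10 at 2.5 h, as it was for 1.44% of all probe sets, and higher for 0. At 4 h it was lower for 4 of 10, against 2.34%, and higher for 0, since Hbegf no longer counted. Among the ligands that were higher after hCG, Btc differed most between genotypes, then Epgn, then Ereg, at both times. At 2.5 h Hbegf by 1418350_at (log2 -1.51) differed by more than Ereg (log2 -1.06), and Hbegf by 1418349_at (log2 -1.04) by about as much.

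**Figure D2:**
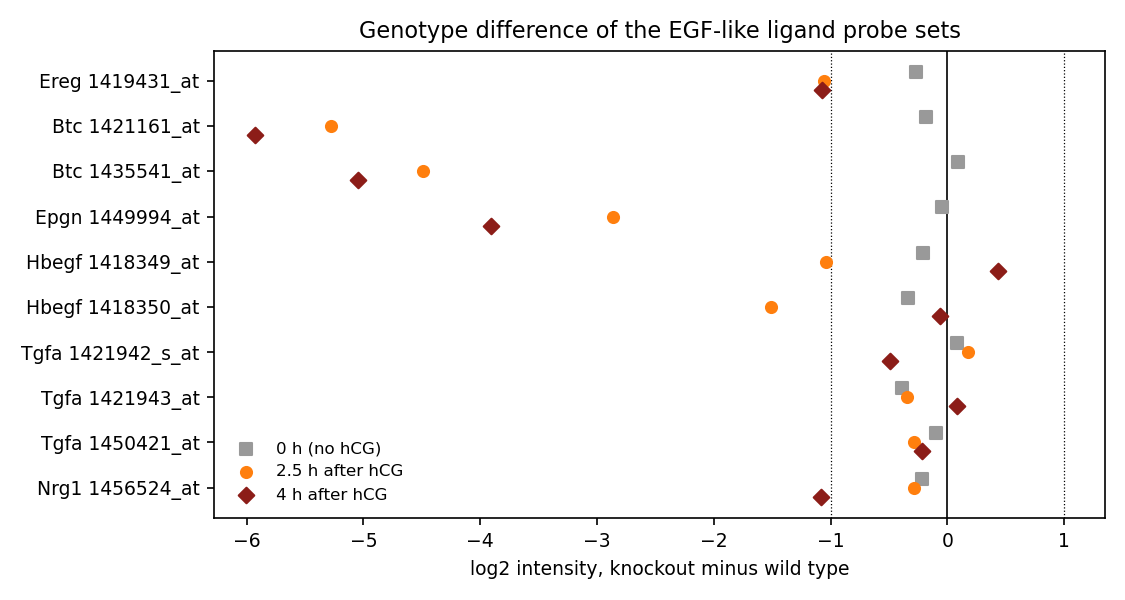
log2 intensity in knockout minus wild type for each ligand probe set (rows) at 0 h, 2.5 h and 4 h, 1 array per genotype and time, with dotted lines at a 2-fold difference. At 0 h each point lies inside the dotted lines, and after hCG Btc lies between -4.49 and -5.93, Epgn at -2.86 and -3.91 and Ereg at -1.06 and -1.07. Nrg1 at 4 h lies past the line but is under 64 on both arrays.

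Models over all 6 arrays and all 45037 probe sets were fitted with limma and Benjamini-Hochberg adjustment. The error in these models comes from how far a difference varied between times or genotypes, and says nothing of the spread between animals. For the response to hCG across the genotypes (0 h subtracted from the average of both later times), 1 of 10 ligand probe sets passed an adjusted p of 0.05, against 0.293% of all. This was Ereg, which rose by 8.41 (log2, SE 0.21, adjusted p = 0.0143 by limma), with all 4 arrays after hCG above both 0 h arrays. Without any one of the 6 arrays, which leaves 1 residual degree of freedom, its limma adjusted p was 0.226 to 0.532, and with 32 added to each intensity it was 0.0814. Epgn (4.36, SE 0.82, limma adjusted p = 0.0983) and Btc by 1435541_at (5.14, SE 1.16, limma adjusted p = 0.124) did not pass, and neither did Hbegf by 1418350_at (-1.89, SE 0.33, limma adjusted p = 0.0890).

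For the genotype difference over the 3 times, 0 of 10 ligand probe sets and 0 of 45037 in all passed in limma (0% of all), and 4 and 6183 had an unadjusted p under 0.05. The additive model takes 1 genotype difference for all times, whereas that of Btc, Epgn and Hbegf varied between times. For the difference of the hCG response between genotypes, 0 of 10 and 0 of 45037 passed in limma (0% of all), with 4 and 4213 at an unadjusted p under 0.05. The estimates of this difference were -5.43 (SE 0.66) and -4.86 (SE 0.89) for Btc, -3.33 (SE 0.82) for Epgn and -0.79 (SE 0.13) for Ereg on the log2 scale, with the same limma adjusted p = 0.527 for each. These estimates use the 0 h values as measured, all of them under 64, so their exact size cannot be read for these genes. The reduced Btc and Epgn responses in knockout thus rest on the size of the measured differences between single arrays.

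The neighbours of the cluster were read to see how far the response extended along the chromosome. Of the genes between Epgn and Btc that are not ligands, 1 of 3 had a probe set, the long noncoding RNA Gm19619, and it stayed under 64. With the 5 nearest protein-coding genes on each side, 11 neighbours were measured. In wild type 1 of 11 was at least 2-fold above 0 h at 2.5 h (2.43% of all probe sets differed) and 2 of 11 at 4 h (6.77%). In knockout 0 of 11 was at 2.5 h (4.05%) and 1 of 11, Parm1, at 4 h (4.53%). One of the wild type pair was Parm1, which encodes a mucin-like membrane protein and is the nearest measured protein-coding gene beyond Btc. It read 725, 2029 and 3590 in wild type against 734, 1247 and 2429 in knockout, so its values after hCG were closer between genotypes than those of Btc. The other was Mthfd2l, which encodes a mitochondrial enzyme of folate metabolism and is the nearest measured protein-coding gene beyond Epgn. Mthfd2l read 304, 408 and 620 in wild type against 353, 387 and 506 in knockout. The chemokine gene Cxcl1 read 427, 677 and 496 in wild type against 350, 288 and 264 in knockout, lower in knockout by more than 2-fold at 2.5 h. Cdkl2, which encodes a protein kinase, differed the other way at 4 h, with 83 in wild type and 213 in knockout. Log2 differences of the 11 from 0 h reached at most 2.31 in wild type at 4 h, below those of Epgn (6.64), Ereg (8.78) and Btc (8.17 and 6.54).

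**Figure D3:**
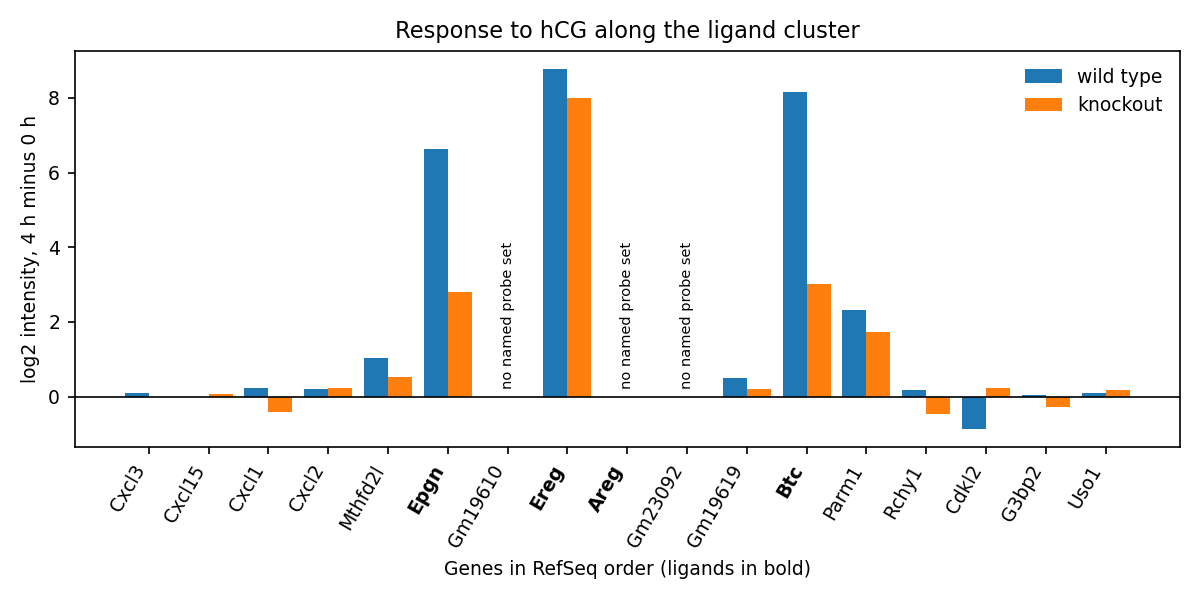
log2 intensity at 4 h minus 0 h for genes in RefSeq order around the ligand cluster (ligands in bold), in wild type and knockout, 1 array per genotype and time. Epgn, Ereg and Btc stand out from their neighbours in wild type, Ereg has bars of similar height in both genotypes, and Parm1 is the neighbour with the tallest bars.

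Genes with the most similar pattern were found by the root mean square difference of log2 profiles over the 6 arrays, each centred on its own mean, among 5610 probe sets that reached 64 and spanned 2-fold. A smaller value is a closer pattern. The genes were picked for likeness on these same arrays, so a shared pattern is no separate observation. For Btc the closest were Star, the cholesterol carrier of steroid synthesis (0.60), Tnfaip6, which links hyaluronan (0.64), Epgn (0.69), the neuropeptide gene Nts (0.70) and Enpp3 (0.79). For Epgn they were Enpp3 (0.36), Tnfaip6 (0.49), the matrix protease gene Adamts9 (0.66), the progesterone receptor gene Pgr (0.67) and Btc (0.69). This Pgr probe set read 22, 469 and 863 in wild type against 23, 45 and 55 in knockout. Its knockout values were thus all under 64. The profiles were centred and not scaled, so a gene with a wide span such as Ereg has larger distances. Its closest were Pgr (1.14), the oxygen-sensing hydroxylase gene Egln3 (1.56), Tnfaip6 (1.79), Adamts9 (1.80) and Crem, a transcription factor gene of the cyclic AMP response (1.88). The Pgr probe set close to Ereg was a different and brighter one than that close to Epgn. It read 25, 4476 and 7661 in wild type against 25, 693 and 1322 in knockout. Egln3 read 36, 1052 and 1252 in wild type against 27, 1682 and 1152 in knockout. For Hbegf the closest were Akr1c14, a steroid-metabolising enzyme (0.22), Clec1a (0.30), the nuclear receptor gene Nr0b1 (0.31), the peroxisomal transporter gene Abcd2 (0.33) and the matrix protease gene Adamts5 (0.38). Akr1c14 read 9470, 4861 and 2194 in wild type against 8640, 2539 and 2078 in knockout. Its low knockout value at 2.5 h, like that of Hbegf, goes with its choice as the closest pattern.

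Upstream of the ligands, 12 genes of LH and cyclic AMP signalling were measured, each by its brightest probe set. By 2.5 h in wild type, 3 of 12 had passed 2-fold above 0 h and 0 below (2.43% of all probe sets differed), and in knockout 4 of 12 were higher and 0 lower (4.05%). Crem read 103, 3886 and 2316 in wild type against 97, 3940 and 1088 in knockout. It was within 2-fold between genotypes at 2.5 h and 2.13-fold lower in knockout at 4 h. Ptger4, a prostaglandin E2 receptor that raises cyclic AMP, read 136, 1788 and 1086 in wild type against 143, 3094 and 2998 in knockout. Pgr was 6.46-fold lower in knockout at 2.5 h. The regulatory subunit gene Prkar1a was at least 2-fold above 0 h in knockout (1563, 3909 and 3508) and not in wild type (2051, 3150 and 3918). The LH receptor gene was not analysed here.

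The other EGF family ligands Egf, Nrg2, Nrg3 and Nrg4 were under 64 on all 6 arrays. Of 4 receptor genes, 3 reached 64. Egfr, the receptor of most of these ligands, read 632, 460 and 272 in wild type against 641, 965 and 457 in knockout. It was 2.32-fold below 0 h at 4 h in wild type and 2.10-fold higher in knockout than in wild type at 2.5 h. Erbb2, a receptor without a ligand of its own, and Erbb3 stayed within 2-fold throughout, and Erbb4 read 13 to 17.

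Among 14 genes that process or hold the ligand precursors, 2 were at least 2-fold above 0 h in wild type at 4 h and 0 in knockout, near the shares of all probe sets that differed (6.77% and 4.53%). Adam8, a membrane protease, read 151, 335 and 713 in wild type against 173, 307 and 291 in knockout. Rhbdf2, which guides the sheddase ADAM17 to the surface, read 253, 410 and 633 in wild type against 219, 309 and 338 in knockout. Adam17 itself, the main sheddase of Areg and Ereg precursors, read 2649, 1900 and 1704 in wild type against 2655, 2466 and 2297 in knockout, within 2-fold in each comparison.

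Of 8 genes that restrain the receptor, 3 were at least 2-fold above 0 h in wild type at 4 h and 0 lower (6.77% of all probe sets differed), and in knockout 0 differed at 4 h (4.53%). At 2.5 h in knockout 1 of 8 was higher (4.05%), Lrig3, a membrane protein gene, by 2.19-fold. Errfi1, which binds and blocks the EGF receptor kinase, read 1054, 7360 and 11607 in wild type against 702, 1183 and 1144 in knockout, 10.1-fold lower in knockout at 4 h. Cblb, a ubiquitin ligase that marks receptors for breakdown, was 2.34-fold lower in knockout at 4 h. All of 7 cumulus expansion genes, which the ligands induce, were at least 2-fold above 0 h in wild type at 4 h (6.77% of all probe sets differed), and for 6 of 7 the knockout level was then under wild type by 2-fold or more (2.34% of all were lower). The exception was Vcan, a proteoglycan gene, at 5151, 11613 and 18645 in wild type against 6425, 13003 and 17200 in knockout. Has2, the hyaluronan synthase, read 29, 324 and 509 in wild type against 21, 27 and 30 in knockout. The median log2 difference between genotypes at 4 h was -3.37 over these 7 genes, -0.28 over the receptor restraint genes and 0.00 over all probe sets.

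**Figure D4:**
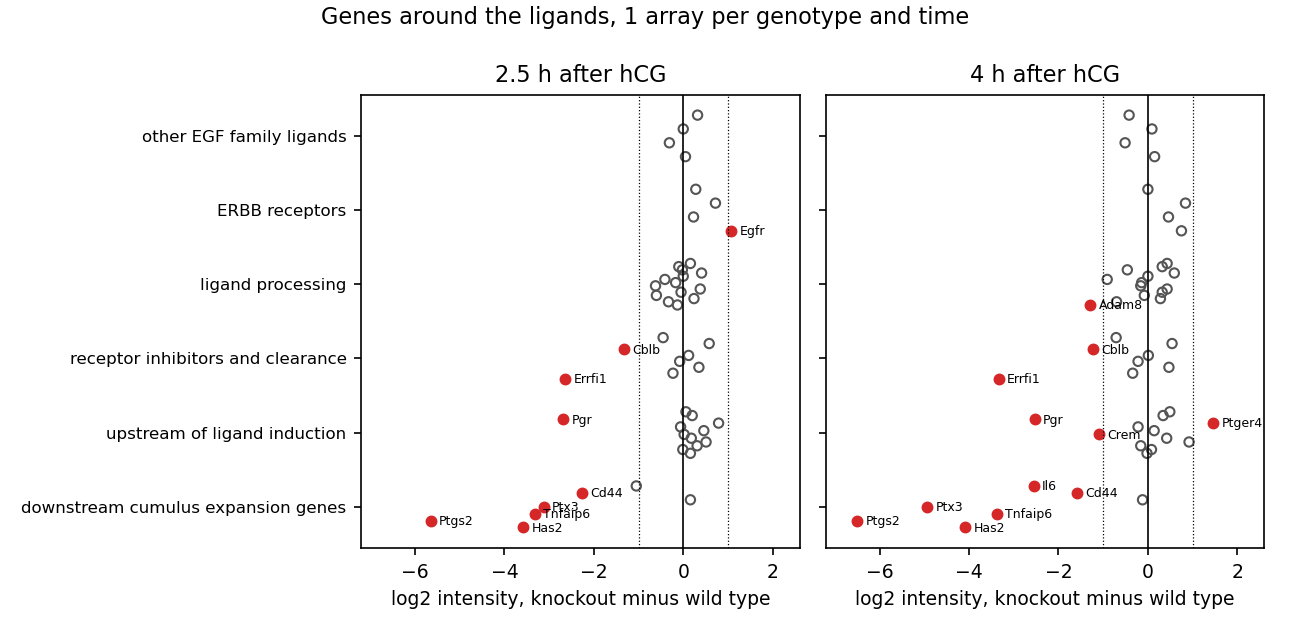
log2 intensity in knockout minus wild type for genes around the ligands, 1 point per gene by list, at 2.5 h and 4 h after hCG, with dotted lines at 2-fold and filled red points for genes past the rule of size. Errfi1 and most cumulus expansion genes (5 of 7 at 2.5 h and 6 of 7 at 4 h) are filled points past the left line. Il6 at 2.5 h lies past that line but is under 64 on both arrays. Vcan lies near 0, and Egfr at 2.5 h and Ptger4 at 4 h lie to the right.

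The 6 arrays were alike in overall level, with 47.1% to 47.6% of probe sets at 64 or more. RNA integrity was read from Gapdh control probe sets as a ratio of 3′ to 5′ signal. The ratio was 4.79, 3.55 and 4.01 in wild type against 5.21, 3.99 and 4.24 in knockout. It was thus higher on both 0 h arrays than on any array after hCG. At each time it was also higher in knockout than in wild type. Its part in the hCG responses and in the genotype differences was not tested. All of 8 measured granulosa markers, Fshr and Foxl2 among them, were above 64. Their summed intensity, most of it from Inha and Inhba, was 98013, 77892 and 71835 in wild type against 93466, 111279 and 108619 in knockout. Of these 8, 3 were below 0 h by 2-fold or more in wild type at 4 h (6.77% of all probe sets differed). These were Fshr (6.29-fold), Foxl2 (2.93-fold) and Amhr2 (2.41-fold), and in knockout 0 of 8 were (4.53%). At 4 h 3 of 8 were at least 2-fold higher in knockout than in wild type, namely Fshr (log2 2.35), Nr5a2 (log2 1.58) and Foxl2 (log2 1.47). The share of all probe sets that were higher in knockout at 2.5 h or 4 h was not counted here. In such bulk samples, fewer cells of a type and less RNA per cell cannot be told apart. All of 7 oocyte markers were above 64 as well. They were lower after hCG in both genotypes, as Hbegf was, summing to 12668, 7486 and 8036 in wild type against 23826, 9793 and 8663 in knockout. In knockout 7 of 7 were at least 2-fold below 0 h at 2.5 h (4.05% of all probe sets differed) and at 4 h (4.53%). In wild type 0 of 7 were at 2.5 h (2.43%) or at 4 h (6.77%). At 0 h 7 of 7 were higher in knockout than in wild type (median log2 0.91), 1 of them by 2-fold or more. The part of these oocyte marker differences in the Hbegf values was not tested. Macrophage and leukocyte markers, of which 6 of 8 reached 64, had sums between 1165 and 1688, and Ptprc and Itgam stayed under 64. In knockout 8 of 8 were above 0 h at both 2.5 h and 4 h. Of these, 0 passed 2-fold at 2.5 h (4.05% of all probe sets differed) and 1 at 4 h (4.53%). That was Csf1r, at 222, 304 and 451 in knockout against 271, 269 and 256 in wild type. In wild type 3 of 8 were above 0 h and 5 below at both times. Endothelial markers summed to 468, 885 and 732 in wild type against 491, 500 and 504 in knockout, with Pecam1 under 64 on all arrays. At 2.5 h in wild type 5 of 5 were above 0 h. Of these, 2 (Kdr and Cldn5) were so by 2-fold or more (2.43% of all probe sets differed). At 2.5 h 5 of 5 were also lower in knockout than in wild type. Of these, 2 passed 2-fold (1.44% of all were lower), Cdh5 by 2.01-fold and Cldn5 by 2.46-fold. Surface epithelium markers summed to 2652, 2596 and 3007 in wild type against 2894, 3661 and 3956 in knockout. Of 7, 1, 2 and 3 were at least 2-fold higher in knockout at the successive times (at 0 h 1.63% of all probe sets differed). Krt7 was higher at each time (2.93-fold, 2.96-fold and 2.45-fold), Upk1b at 2.5 h and 4 h (2.02-fold and 2.24-fold) and Msln at 4 h (2.08-fold). The theca marker Cyp17a1 read 1994, 2037 and 1399 in wild type against 1845, 14251 and 13997 in knockout. Ptch1, another theca marker, read 3247, 1789 and 1868 in wild type against 3308, 1060 and 1540 in knockout. Hhip, the third one measured, read 98, 149 and 467 in wild type against 74, 136 and 117 in knockout. The part of these markers in the ligand differences was not tested. Probe sets for the ERK1 and ERK2 genes were not analysed here, so the genotypes are as labelled.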

How the data were processed

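RNA from granulosa cells was measured on 6 single-colour Affymetrix arrays, 1 per genotype and time. The deposited intensity values were made by the authors with RMA in the affy package, per the submitters' processing notes, with versions not given in the sources used here. They are whole numbers on a linear scale, which leaves coarse steps for dim probe sets, and quantile normalization hides changes in total RNA. After 64 control rows were removed, log2 of each intensity was taken. Genes were named from the platform annotation. Of 45037 probe sets, 34945 had 1 symbol, 932 several and 9160 none. All 10 ligand probe sets were reported. A gene in a pathway or marker list was represented by its probe set with the highest mean log2, and neighbours and similar genes were chosen by fixed rules of order and distance (5 genes per ligand). The models were fitted with limma 3.58.1 in R 4.3.3 with no floor and a threshold of 0.05. Residual degrees of freedom were 2, with prior degrees of 2.49 for the additive model of time and genotype and 1.59 for the model of 4 cells (genotype before or after hCG). The models were also run on simulated data with independent noise, which does not show how well they suit these arrays. Alternatives were cyclic loess, other floors, a pseudocount of 32, the other genotype's 0 h array, a variance trend and leaving out each array. The members and lists were chosen with earlier results of these data known. Array number limits the precision.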

Additional observations from a re-analysis of the deposited data

How the results depend on the processing

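The number of ligand probe sets past 2-fold stayed within 1.5 times of the reported count in all 9 comparisons under cyclic loess, both other floors, a pseudocount of 32 and, for comparisons with 0 h, the other genotype's 0 h array. In the limma test of the hCG response over both genotypes, 1 ligand probe set passed as reported, 5 passed when only probe sets with a mean log2 of at least 6 were tested, 0 with a pseudocount of 32, and 0 to 0 when each array was left out in turn. In the test with the floor, Btc (limma adjusted p = 0.0410 by 1435541_at), Epgn (0.0304) and both Hbegf probe sets (0.0335 and 0.0295) joined Ereg. Fewer probe sets are tested there, and Btc, Epgn and Ereg enter that test only through the arrays where they are bright. Both genotype tests gave 0 ligand probe sets under each alternative run. Of 671 values of single probe sets under an alternative, 0 called values changed sign, 641 kept their call without a change of sign, 8 lost their call and 5 gained one. A value of 0 was not counted as a change of sign. The other 17 had no call, were all of Tgfa, Hbegf or Nrg1, and changed sign. Hbegf by 1418349_at, for example, went from -0.28 to 0.11 in the genotype difference without either 2.5 h array. Nrg1 at 4 h was 2.11-fold lower in knockout (log2 -1.08) and counted as different with a floor of 32. Leaving out a 0 h array could not be run for the difference of responses. No paired analysis was possible because the labels carry no replicate numbers.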
